A study of Mus musculus with 12 samples.

Results

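CT26 cells, a mouse colon carcinoma line grown in culture, were exposed to short-term starvation (STS) together with oxaliplatin (OXP) and compared with untreated control cells (CTR) on oligonucleotide expression arrays. STS+OXP-treated cells were kept for 48 hours in a medium of low glucose (0.5 g/L) and low serum (1%) and, from 24 hours after the start of STS, received OXP, a platinum drug, at 10 µM according to the sample labels. CTR cells were kept for 48 hours in a medium of 1.0 g/L glucose with serum at 10%, without drug. The comparison takes 6 of the 12 arrays of the study, 3 for each group, chosen by their sample titles. The other 6 arrays hold RNA of cells given OXP alone (OXP, medium of the controls) or STS alone (STS, medium of the starved cells), 3 each. The text of the study gives a higher OXP dose than the labels for the treated CT26 cells it describes with the arrays, so the dose is not settled here. Whether replicate arrays stem from separate cultures is stated nowhere, so the tests measure the spread between arrays, which may be technical. The question was what the mRNA profile of cells under both stressors looked like relative to cells under none, gene class by gene class.

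Oxaliplatin forms platinum adducts on DNA that block replication and transcription. A cell that senses such lesions stabilizes the transcription factor p53, whose targets include inhibitors of the cell cycle, feedback regulators such as Mdm2 and genes of cell death and repair. Low glucose and low serum withdraw fuel and growth factors. Cells answer a shortage of nutrients through factors that include FoxO proteins, the sterol-sensing SREBP factors, the lysosomal regulator TFEB, the amino acid response factor ATF4 and the hypoxia factor HIF-1, each of which acts on a set of known target genes. Interferon-stimulated genes, in turn, are switched on by interferons or by nucleic acids in the cytosol and include antiviral proteins and the machinery that presents antigens on major histocompatibility complex (MHC) class I molecules.

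Values are log2 signals made with RMA, so that a difference of 1 is a 2-fold change of the signal. The background of an array was set at its brightest control probe set, out of 22 without a target, and this level averaged 3.59 on the STS+OXP arrays and 3.66 on the CTR arrays. Within both groups the arrays lay close together, with root mean square differences over genes of 0.143 to 0.177 between STS+OXP arrays and 0.150 to 0.205 between CTR arrays, against 0.535 to 0.571 between arrays of the 2 groups. The control probe sets of Gapdh had a higher signal at the 3′ than at the 5′ end of the transcript by 0.114 to 0.284 (log2) on the STS+OXP arrays and by -0.117 to -0.016 on the CTR arrays, and the part of this shift in the results was not tested. OXP replicate 1, which enters the shared estimate of the spread, stood apart with 3.85. Of 15 markers of epithelium and colon, 4 were above background, among them Krt20 with a mean signal of 6.85 in STS+OXP and 6.77 in CTR and Epcam with 4.87 and 4.79, whereas the adhesion gene Cdh1 was at background in both groups (2.25 and 2.19), so most of the markers that define a colon epithelial cell were not detected. Of 9 macrophage markers, 9 lymphocyte markers and 7 endothelial markers, 3, 5 and 1 were above background, and the leukocyte gene Ptprc (2.66 in STS+OXP and 2.78 in CTR) and the endothelial gene Pecam1 (2.74 in STS+OXP and 2.77 in CTR) were not.

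STS+OXP-treated cells differed from CTR cells in 5230 of 17097 genes, or 30.6% of those tested, at an adjusted p under 0.05 in limma. Of these, 2796 genes (16.4%) were higher and 2434 (14.2%) were lower. A called difference of at least 1 on the log2 scale was found for 594 genes that rose (3.47%) and 570 that fell (3.33%), one of at least 2 for 100 (0.585%) and 113 genes (0.661%), and one of at least 3 for 25 (0.146%) and 9 genes (0.0526%). The median difference over all genes was 0.00045, and the 5% and 95% quantiles were -0.80 and 0.82. The 3 STS+OXP arrays and the 3 CTR arrays did not overlap for 7543 genes (44.1%), higher for 23.3% and lower for 20.8%. Signal above background in STS+OXP only was seen for 477 genes, of which 183 were called higher, and in CTR only for 191 genes, of which 128 were called lower, while 7139 genes were above background in neither group. In RNA from a whole culture, fewer cells of a type and less RNA per cell cannot be told apart.

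**Figure D1:**
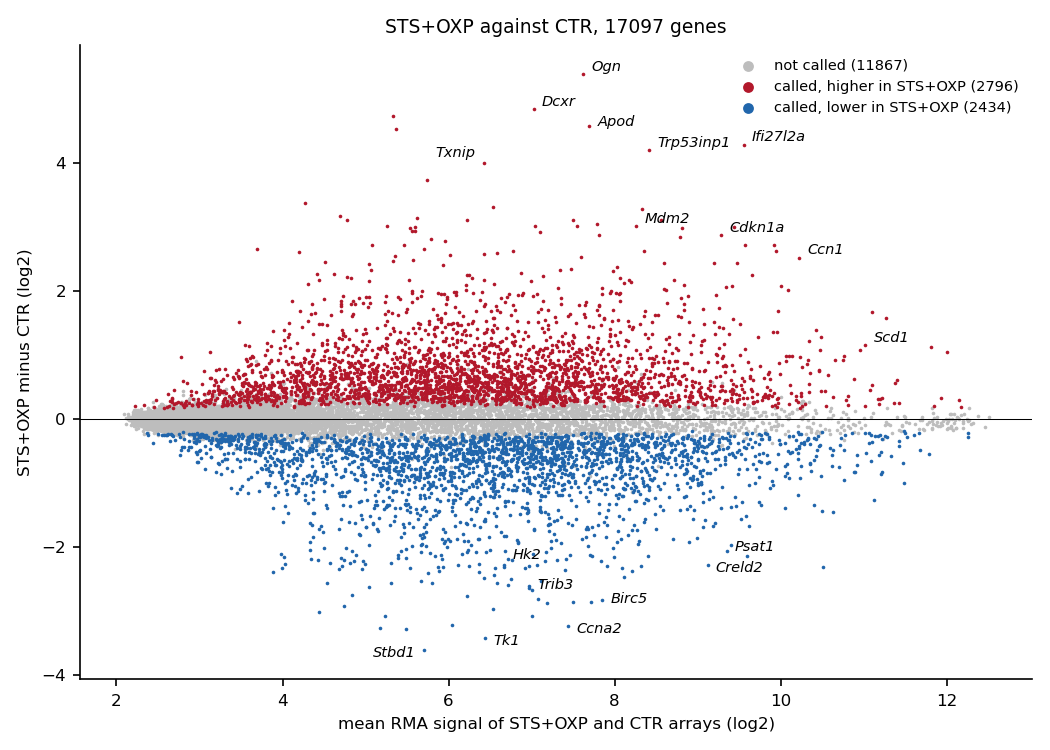
Difference between STS+OXP and CTR (vertical axis, log2) against the mean RMA signal of both groups (horizontal axis, log2) for 17097 genes (points), with the 2796 called higher in STS+OXP in red, the 2434 called lower in blue and the others in grey. The largest rises, led by Ogn, reach above 5, and the largest falls, led by Stbd1, reach below -3.5.

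The 20 genes that rose most were taken from called genes without overlap between the groups. Among them were secreted matrix proteins, p53 targets, interferon-stimulated genes and metabolic enzymes. The largest rise was that of Ogn, which encodes osteoglycin, a small leucine-rich proteoglycan, with 10.37, 10.33 and 10.24 on the STS+OXP arrays and 4.79, 5.19 and 4.78 on the CTR arrays. The log2 difference was 5.39 (standard error 0.475, adjusted p = 9.71e-07). Omd, which encodes the related osteomodulin, had 8.28, 8.24 and 8.07 on the STS+OXP arrays and 4.95, 5.05 and 4.62 on the CTR arrays, a difference of 3.32 (standard error 0.36, adjusted p = 6.71e-06). Apod, the secreted lipid carrier apolipoprotein D, read 9.94, 10.17 and 9.85 on the STS+OXP arrays and 5.48, 5.24 and 5.49 on the CTR arrays. Its difference was 4.59 (standard error 0.399, adjusted p = 8.45e-07), which made it the fourth largest rise.

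Dcxr, a reductase of xylulose and of reactive dicarbonyls, had 9.40, 9.57 and 9.39 on the STS+OXP arrays and 4.64, 4.61 and 4.55 on the CTR arrays, a difference of 4.85 (standard error 0.0951, adjusted p = 1.74e-12). Trp53inp1, a p53 target that encodes a nuclear stress protein, had 10.56, 10.46 and 10.53 on the STS+OXP arrays and 6.17, 6.44 and 6.35 on the CTR arrays, with a difference of 4.20 (standard error 0.0788, adjusted p = 1.74e-12). Txnip, an arrestin-like protein that restrains glucose uptake, had 8.43, 8.44 and 8.41 on the STS+OXP arrays and 3.96, 4.74 and 4.58 on the CTR arrays, with a difference of 4.0 (standard error 0.182, adjusted p = 1.90e-09). In these genes the arrays of the groups could not overlap, since that was a condition for their choice. Aldh1a1, a retinaldehyde dehydrogenase, rose by 3.74 (standard error 0.128, adjusted p = 2.34e-10), and Ghr, the growth hormone receptor, by 3.12 (standard error 0.244, adjusted p = 3.10e-07).

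Some of the 20 genes were not detected in CTR, so that only a lower bound of the fold change is given. Cryab, a small heat shock protein, was at least 16.4-fold higher in STS+OXP, with 7.71, 7.73 and 7.64 on the STS+OXP arrays and 2.71, 3.05 and 3.10 on the CTR arrays (adjusted p = 1.01e-11), but another probe set of the gene, with a mean signal of 5.84, had a difference of -0.82. Ces2e, a carboxylesterase, was at least 4.93-fold higher (adjusted p = 5.55e-10), and Anxa8, a calcium-dependent membrane-binding annexin, at least 6.4-fold (adjusted p = 1.19e-06). Cd80, the costimulatory ligand of T cells, had 6.28, 6.20 and 6.36 on the STS+OXP arrays and 3.16, 3.05 and 3.08 on the CTR arrays and was at least 6.14-fold higher (adjusted p = 7.93e-11). With specific probe sets only, Cd80 was read by a dimmer set with a difference of 0.03 (adjusted p = 0.927), whereas its adjusted p was 2.48e-07 or lower under the other 21 alternatives. Csprs was at least 15.8-fold higher (adjusted p = 1.97e-08), but dimmer probe sets of the gene had log2 differences of 0.88 and 0.92. Csprs belongs to a cluster of near-identical copies in the mouse genome, and the probe set used may read several of them.

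The remaining genes of the 20 were Eda2r, a receptor of the tumour necrosis factor family and a p53 target, and genes of the interferon response. Eda2r had 7.34, 7.10 and 7.16 on the STS+OXP arrays and 3.80, 4.11 and 4.23 on the CTR arrays, a difference of 3.15 (standard error 0.111, adjusted p = 2.68e-10). Ifi27l2a, an interferon-inducible protein of mitochondria and nuclear envelope, had 11.75, 11.81 and 11.54 on the STS+OXP arrays and 7.68, 7.33 and 7.21 on the CTR arrays, with a difference of 4.29 (standard error 0.358, adjusted p = 5.74e-07). Zbp1, a sensor of nucleic acids in the Z conformation, rose by 3.12, Tgtp1, an interferon-inducible GTPase, by 3.11, Ifi44l by 3.02, and the non-classical MHC class I genes H2-T23 and H2-T10 by 3.28 and 3.06 (adjusted p from 1.42e-09 to 1.88e-07). Tgtp1 and the H2-T genes belong to families of closely related genes whose signals may overlap.

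**Figure D2:**
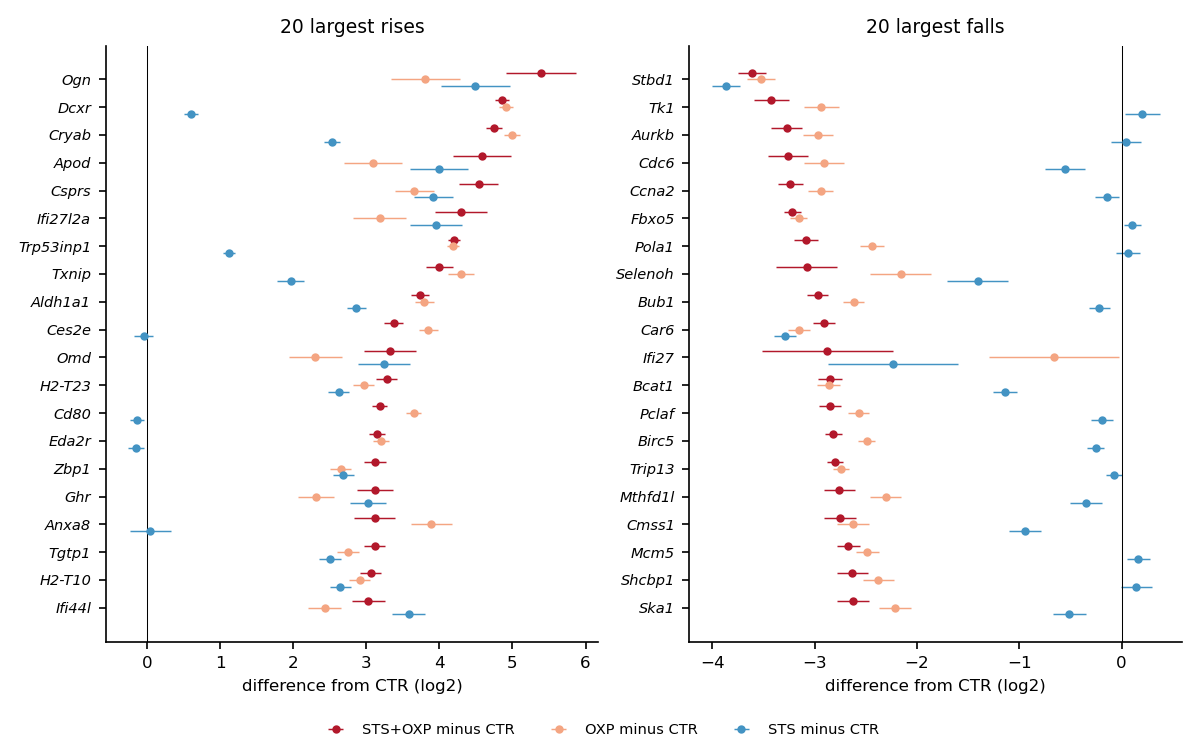
Log2 differences from CTR (horizontal axes) of the 20 genes with the largest rise (left) and the 20 with the largest fall (right) in STS+OXP, as points with standard errors for STS+OXP minus CTR (dark red), OXP minus CTR (orange) and STS minus CTR (blue), which share the CTR arrays. Eda2r, Cd80 and most falling cell cycle genes have STS values near 0 and Dcxr has 0.60, while Ogn, Apod, Stbd1 and Car6 lie far from 0 in all 3 comparisons.

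These rises fell into different patterns when the other arrays were set beside them. For scale, STS differed from CTR in 16.5% of all genes (9.75% higher, 6.74% lower) and OXP from CTR in 31.4% (17.5% higher, 13.9% lower). Ogn had a difference from CTR of 4.49 in STS and 3.81 in OXP, and it was not called between STS+OXP and STS (0.90, standard error 0.475, adjusted p = 0.226). Ghr (3.03 in STS) and Omd (3.24 in STS) had differences between STS+OXP and STS of 0.09 (adjusted p = 0.861) and 0.08 (adjusted p = 0.92). Dcxr, in contrast, had 0.60 in STS and 4.91 in OXP, and STS+OXP exceeded STS by 4.26 (standard error 0.0951, adjusted p = 1.40e-11). Eda2r had -0.15 in STS, and STS+OXP exceeded STS by 3.30 (adjusted p = 2.59e-10). Cd80, Ces2e and Anxa8 were at background in STS as in CTR, with means of 2.96, 2.54 and 3.27 on the STS arrays. In the plot of the largest changes, the values of genes at background in one of the groups are fitted differences and not bounds. The 3 comparisons with CTR share the CTR arrays, and on the OXP arrays Ogn read 8.0, 10.40 and 7.79, with OXP replicate 2 at the level of STS+OXP.

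The largest fall was that of Stbd1, which encodes a starch-binding protein that tethers glycogen to membranes, with 3.67, 3.94 and 4.10 on the STS+OXP arrays and 7.68, 7.28 and 7.58 on the CTR arrays, a difference of -3.61 (standard error 0.139, adjusted p = 5.06e-10). Car6, a secreted carbonic anhydrase, dropped to background in STS+OXP and was at least 6.09-fold lower than in CTR (adjusted p = 4.11e-10). In STS the difference of Stbd1 from CTR was -3.86, and Car6 was at background there too. Bcat1, the cytosolic aminotransferase of branched-chain amino acids, had 6.07, 6.04 and 6.11 on the STS+OXP arrays and 9.09, 8.78 and 8.90 on the CTR arrays, a difference of -2.85 (standard error 0.114, adjusted p = 7.25e-10). Selenoh, a nuclear selenoprotein, fell by 3.07 (adjusted p = 2.40e-06), and Cmss1 was at least 6.15-fold lower (adjusted p = 1.60e-08). Ifi27, an interferon-inducible gene, went against others of its class, with 5.75, 5.66 and 5.86 on the STS+OXP arrays and 8.68, 8.55 and 8.65 on the CTR arrays, a difference of -2.88 (standard error 0.637, adjusted p = 0.00295), and the OXP arrays read 9.10, 5.68 and 9.12.

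The other 14 of the 20 largest falls were mostly genes of DNA synthesis and of cell division. Tk1, the thymidine kinase of proliferating cells, had 4.71, 4.70 and 4.76 on the STS+OXP arrays and 8.16, 8.08 and 8.20 on the CTR arrays, a difference of -3.42 (standard error 0.171, adjusted p = 4.46e-09). Ccna2, the cyclin of S phase and mitotic entry, had 5.90, 5.59 and 5.96 on the STS+OXP arrays and 9.09, 9.05 and 9.03 on the CTR arrays, a difference of -3.24 (standard error 0.12, adjusted p = 4.11e-10). Fbxo5, an inhibitor of the ubiquitin ligase that ends mitosis, had 4.50, 4.44 and 4.36 on the STS+OXP arrays and 7.71, 7.61 and 7.63 on the CTR arrays, a difference of -3.22 (standard error 0.0815, adjusted p = 1.59e-11). Like the largest rises, these falls were taken from called genes without overlap between the groups. Pclaf, a partner of the sliding clamp, fell by 2.85 (adjusted p = 4.11e-10), Trip13, an ATPase of checkpoint control, fell by 2.80 (adjusted p = 5.71e-11), Mthfd1l, a mitochondrial folate enzyme, fell by 2.76 (adjusted p = 1.13e-08), and Shcbp1, a binding partner of the adaptor Shc1, fell by 2.63 (adjusted p = 1.57e-08). Ska1, a kinetochore protein, fell by 2.62 (adjusted p = 2.38e-08), but with specific probe sets only it took a dimmer set with a difference of -0.09 (adjusted p = 0.677, against 5.23e-07 or lower under the other 21 alternatives). Across these 14 genes the differences of STS from CTR ran from -0.55 to 0.20.

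Targets of p53 rose in STS+OXP-treated cells. Of 38 measured targets, 29 were higher and 0 lower, against 16.4% and 14.2% of all genes, and the median difference of the list was 1.12. Cdkn1a, which encodes the cyclin-dependent kinase inhibitor p21, had 10.67, 10.77 and 10.73 on the STS+OXP arrays and 7.85, 7.92 and 7.78 on the CTR arrays, a difference of 2.87 (standard error 0.0691, adjusted p = 1.25e-11). Mdm2, the ubiquitin ligase that holds p53 down, had 9.90, 9.53 and 9.88 on the STS+OXP arrays and 6.71, 6.76 and 6.77 on the CTR arrays, a difference of 3.02 (standard error 0.0984, adjusted p = 1.49e-10). Neither gene overlapped between groups, which held for 44.1% of all genes. In STS Cdkn1a differed from CTR by -0.04 and Mdm2 by 0.10, and in OXP by 2.95 and 3.42. Relative to STS, 28 of the 38 targets were higher in STS+OXP and 1 was lower, against 10.8% and 11.2% of all genes.

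Other inhibitors of cyclin-dependent kinases changed less. Of 7 measured, 3 were higher and 1 lower. Cdkn1b, which encodes p27, rose by 0.54 (adjusted p = 0.00536) and Cdkn2c, which encodes p18, by 0.61 (adjusted p = 4.92e-05), whereas Cdkn2d, which encodes p19, fell by 1.11 (adjusted p = 2.88e-07). Of 11 cyclins and cyclin-dependent kinases, 9 were lower and 2 higher, with a median of -1.02. Ccne2, a cyclin of the entry into S phase, was at background in STS+OXP and at least 4.86-fold lower than in CTR (adjusted p = 4.24e-07), and Ccnb2, a mitotic cyclin, fell by 2.30 (adjusted p = 9.15e-11). The 2 that rose were the cyclins of the early growth phase Ccnd2, with 0.85 (adjusted p = 2.25e-06), and Ccnd1, with 0.44 (adjusted p = 0.000583), and Ccnd1 was not called with the mean of all probe sets (adjusted p = 0.0537).

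Within the BCL2 family, members on both sides of the death decision rose, at a rate near that of all genes above background. Bcl2l11, which encodes the pro-apoptotic protein BIM, had 7.43, 7.21 and 7.45 on the STS+OXP arrays and 6.10, 6.18 and 6.33 on the CTR arrays, a difference of 1.16 (standard error 0.233, adjusted p = 0.00144), and Bbc3, the p53 target PUMA, rose by 0.77 (adjusted p = 0.00358). Among 10 pro-apoptotic members 3 were higher, or 5 without OXP replicate 1, and 2, Bok (-0.95) and Bid (-0.38), were lower. Of 6 anti-apoptotic members 2 were higher, Bcl2l1, which encodes BCL-XL, by 0.84 (adjusted p = 6.13e-06) and Mcl1 by 0.53 (adjusted p = 9.86e-05). The median difference was 0.16 for the pro-apoptotic and 0.02 for the anti-apoptotic members. Of all genes above background in both groups, 27.0% were higher and 23.3% lower. Bmf, the third riser of the pro-apoptotic members (0.69, adjusted p = 0.000809), was read by a different, dimmer set with specific probe sets only, where its difference was -0.04 (adjusted p = 0.817, against 0.0149 or lower under the other 21 alternatives).

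Genes of DNA replication fell almost throughout. Of 40 measured, 38 were lower and 0 higher in STS+OXP, with a median of -1.62, and the 2 not called, Orc1 (-0.26) and Gins3 (-0.27), lay below 0 as well. Cdc6, the loader of the replicative helicase, had 3.60, 3.39 and 3.65 on the STS+OXP arrays and 6.76, 6.82 and 6.83 on the CTR arrays; it was at background in STS+OXP and at least 9.29-fold lower than in CTR (adjusted p = 2.41e-08). Pola1, the catalytic subunit of the polymerase that primes synthesis, had 3.58, 3.62 and 3.87 on the STS+OXP arrays and 6.79, 6.78 and 6.74 on the CTR arrays, a difference of -3.08 (standard error 0.117, adjusted p = 4.57e-10). Mcm5, a subunit of the helicase itself, had 5.62, 5.65 and 5.72 on the STS+OXP arrays and 8.29, 8.30 and 8.40 on the CTR arrays, a difference of -2.67 (standard error 0.115, adjusted p = 1.18e-09). In STS the median of the list was 0.10, with 6 genes higher and 1 lower than in CTR, and in STS+OXP 38 of the 40 genes were below STS.

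Of the 33 replication genes with a promoter in the RefSeq table (GRCm38.p6), 18, or 54.5%, held a match to the E2F site (spelled as TTTGGCG, or as TTTCCCG, or as TTTCGCG, or else as TTTGCCG, on either strand) in the window of 250 bases before to 50 after the start, against 10.4% of 13514 promoters of measured genes. E2F factors switch replication genes on at the start of S phase. The promoter of Cdc6, the called member with the largest change among those with a match, is shown to place these letters (chr11:98907901-98908200, plus strand), with the match, which starts at -137 from the start site and is read on the other strand, in capitals. For the mitotic genes, the promoter of Birc5, chosen in the same way, is shown (chr11:117848987-117849286, plus strand), with the CHR element (TTTGAA or TTTAAA on either strand), through which the DREAM complex acts on late cell cycle genes, in capitals at -220.
Cdc6: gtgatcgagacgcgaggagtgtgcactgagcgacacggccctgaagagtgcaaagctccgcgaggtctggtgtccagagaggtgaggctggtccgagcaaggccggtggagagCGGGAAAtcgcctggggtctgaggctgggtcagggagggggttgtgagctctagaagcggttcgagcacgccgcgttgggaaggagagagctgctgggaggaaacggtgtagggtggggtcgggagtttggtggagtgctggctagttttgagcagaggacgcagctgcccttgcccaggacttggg
Birc5: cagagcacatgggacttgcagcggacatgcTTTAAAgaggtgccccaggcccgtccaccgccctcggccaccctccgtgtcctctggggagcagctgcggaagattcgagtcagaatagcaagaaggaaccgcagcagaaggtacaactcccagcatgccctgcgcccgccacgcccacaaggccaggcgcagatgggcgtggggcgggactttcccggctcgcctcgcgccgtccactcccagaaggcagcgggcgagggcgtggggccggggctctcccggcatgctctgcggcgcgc

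Mitotic genes fell to a similar extent. Of 38 measured, 37 were lower and 0 higher, with a median of -1.91, and only Kif23 (-0.02) was not called. Aurkb, the kinase of the chromosomal passenger complex, had 3.80, 3.93 and 3.83 on the STS+OXP arrays and 6.98, 7.16 and 7.24 on the CTR arrays, a difference of -3.27 (standard error 0.149, adjusted p = 1.90e-09). Birc5, which encodes survivin, a subunit of the same complex, had 6.43, 6.41 and 6.49 on the STS+OXP arrays and 9.23, 9.29 and 9.24 on the CTR arrays, a difference of -2.82 (standard error 0.0833, adjusted p = 7.26e-11). Bub1, a kinase of the spindle checkpoint, had 5.16, 4.95 and 5.04 on the STS+OXP arrays and 7.97, 8.06 and 8.03 on the CTR arrays, a difference of -2.97 (standard error 0.101, adjusted p = 2.20e-10). In STS these 3 genes lay at 0.05, -0.25 and -0.22 relative to CTR. The CHR letters were found in 24 of 30 mitotic promoters (80%), against 24.8% of all promoters.

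Of 23 genes of homologous recombination and of the Fanconi pathway, which act on interstrand crosslinks, 15 were lower and 0 higher, with a median of -0.85. Brca1 had 3.92, 3.98 and 3.70 on the STS+OXP arrays and 5.89, 6.41 and 6.09 on the CTR arrays, a difference of -2.26 (standard error 0.195, adjusted p = 7.66e-07), Fancb, a subunit of the Fanconi core complex, fell by 1.76 (adjusted p = 3.39e-09), and Exo1, an exonuclease of end resection, was at background in STS+OXP and at least 1.99-fold lower than in CTR (adjusted p = 5.28e-07). Of 14 genes of nucleotide excision repair, which removes platinum adducts from a single strand, 5 were higher and 2 lower, with a median of -0.07, against 27.0% higher and 23.3% lower of the 9290 genes above background in both groups. Ercc5, the endonuclease XPG, had 7.52, 7.26 and 7.34 on the STS+OXP arrays and 5.33, 5.32 and 4.73 on the CTR arrays, a difference of 2.25 (standard error 0.135, adjusted p = 2.44e-08). Xpc, the lesion sensor and a p53 target, rose by 1.34 (adjusted p = 6.43e-06) and Ercc4, a further endonuclease, by 0.67 (adjusted p = 0.000511), while Gtf2h4, a subunit of the repair factor TFIIH, fell by 0.62 (adjusted p = 0.00873).

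Enzymes that supply nucleotides and one-carbon units fell together with replication. Of 20 genes of nucleotide synthesis, 18 were lower and 2 higher, with a median of -0.80. Tyms, the thymidylate synthase, had 6.17, 6.35 and 6.18 on the STS+OXP arrays and 8.37, 8.21 and 8.13 on the CTR arrays, a difference of -2.01 (standard error 0.148, adjusted p = 1.78e-07), Ppat, which opens purine synthesis, fell by 1.89 (adjusted p = 5.79e-07), and Dut, which clears dUTP, fell by 1.87 (adjusted p = 6.89e-09). The 2 that rose were Prps2, which makes phosphoribosyl pyrophosphate, with 1.11 (adjusted p = 5.19e-06), and Ctps2, a synthase of CTP, with 0.60 (adjusted p = 0.0014), which was not called with the mean of all probe sets (adjusted p = 0.159). Of 11 one-carbon enzymes, 10 were lower, with a median of -1.84, and the sole riser, Aldh1l1 (0.56, adjusted p = 0.0186), had a mean signal of 3.32 in STS+OXP and 2.76 in CTR, not above background. Mthfd1l had 5.01, 4.99 and 4.55 on the STS+OXP arrays and 7.62, 7.59 and 7.60 on the CTR arrays, and Shmt2, the mitochondrial serine hydroxymethyltransferase, had 5.77, 6.09 and 5.70 on the STS+OXP arrays and 8.49, 8.30 and 8.34 on the CTR arrays, a difference of -2.52 (standard error 0.266, adjusted p = 5.21e-06). In STS alone 4 of the 11 enzymes were lower than in CTR, with a median of -0.38.

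Genes of high-mobility-group proteins were mostly lower, while most histone genes were not called. Of 9 genes of high-mobility-group proteins and lamins, 6 were lower and 1 was higher, with a median of -0.75. Hmgb2, a DNA-bending protein of proliferating cells, had 8.62, 8.30 and 8.16 on the STS+OXP arrays and 9.92, 10.07 and 10.07 on the CTR arrays, a difference of -1.66 (standard error 0.16, adjusted p = 2.20e-06), and Hmgn5, which binds nucleosomes, fell by 1.64 (adjusted p = 2.18e-06). Of 13 measured histone genes, 2 were lower, the variants H2ax, with -1.86 (adjusted p = 4.99e-09), and H2az1, with -1.45 (adjusted p = 9.33e-09). The 4 that rose, H1f2, H2bc4, H3f3a and H3f3b, had differences of 0.86, 0.61, 0.31 and 0.32, and histone genes of one type are near-identical, so a probe set may read several. Without OXP replicate 1, 4 histone genes were lower. Of all genes above background in both groups, 27.0% were higher and 23.3% lower, so the histone counts lay near the shares of these genes.

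**Figure D3:**
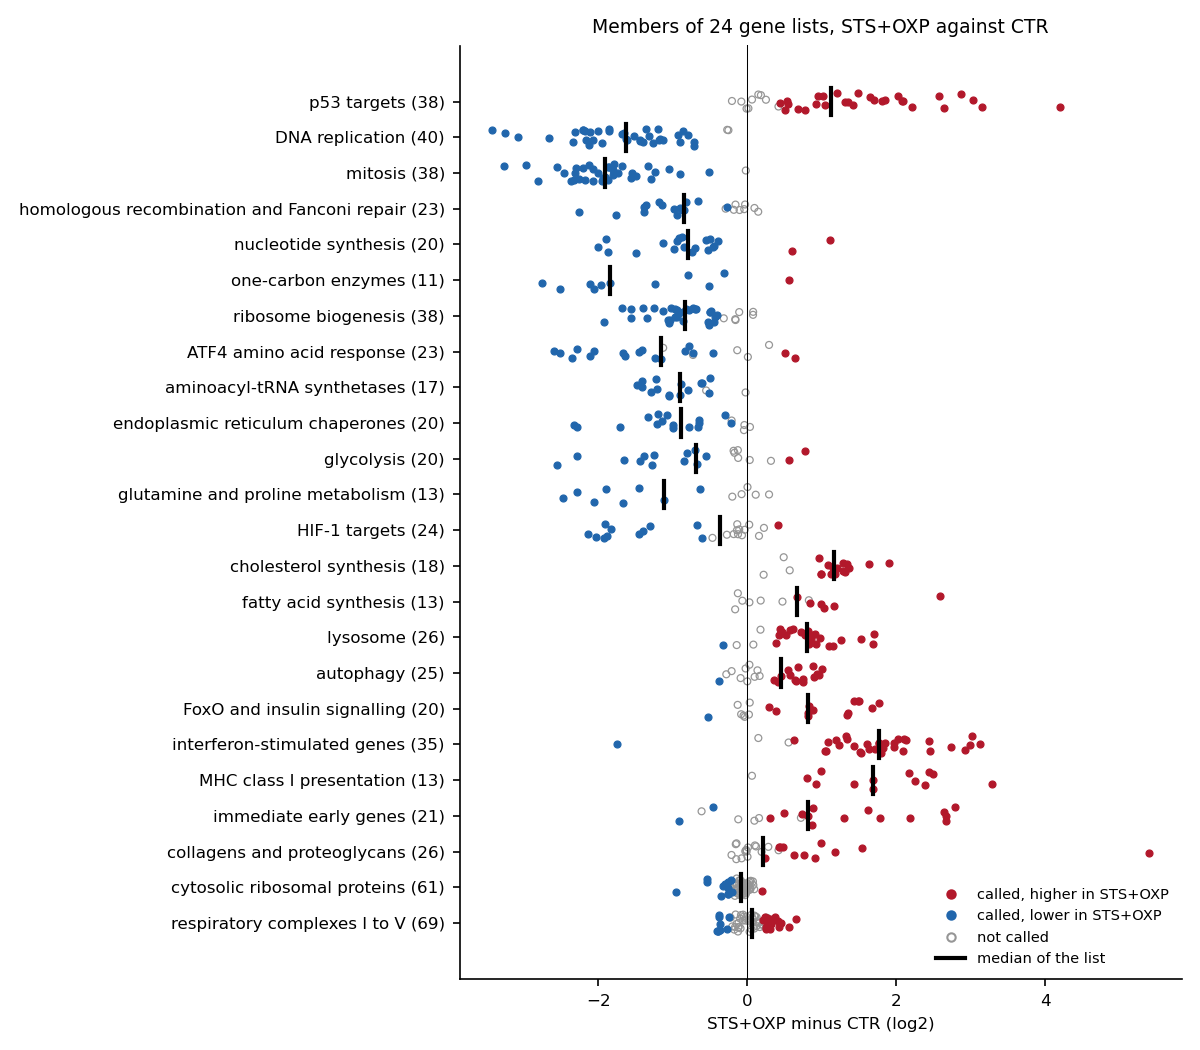
Log2 differences between STS+OXP and CTR (horizontal axis) of the measured members of 24 gene lists (rows, number of genes in parentheses). Filled red and blue points are genes called higher and lower in STS+OXP, open points are genes not called, and black bars are list medians, which run from -1.91 for mitosis to 1.77 for interferon-stimulated genes.

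Genes that build ribosomes fell, while most ribosomal proteins themselves were not called. Of 38 genes of ribosome biogenesis, 32 were lower and 0 higher, with a median of -0.85. Dkc1, the pseudouridine synthase of ribosomal RNA, had 7.16, 6.84 and 7.20 on the STS+OXP arrays and 8.94, 9.06 and 8.96 on the CTR arrays, a difference of -1.92 (standard error 0.0941, adjusted p = 3.85e-09), Nop16, a nucleolar assembly factor, fell by 1.69 (adjusted p = 4.84e-07), and Rrp12, which acts in ribosome export, fell by 1.56 (adjusted p = 2.69e-07). In STS 16 of the genes were lower than in CTR, with a median of -0.27, and in STS+OXP 24 were below STS. Of 61 cytosolic ribosomal proteins, 13 were lower and 1 was higher, with a median of -0.08. Their share lower was near the 23.3% of all genes above background in both groups, of which 27.0% were higher. However, 25 were lower under eBayes with trend and robust and 24 with the mean of all probe sets. Rpl3 fell by 0.54 (adjusted p = 8.64e-06), with 11.51, 11.52 and 11.52 on the STS+OXP arrays and 12.05, 12.05 and 12.07 on the CTR arrays. Of 69 mitochondrial ribosomal proteins, 29 were lower and 2 higher, with a median of -0.16, among them Mrpl12, which fell by 1.09 (adjusted p = 4.76e-07).

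The amino acid response was low in STS+OXP-treated cells. Of 23 measured targets of ATF4, 16 were lower and 2 higher, with a median of -1.16. Trib3, a pseudokinase that ATF4 induces, had 5.59, 5.72 and 5.71 on the STS+OXP arrays and 8.38, 8.17 and 8.26 on the CTR arrays, a difference of -2.60 (standard error 0.158, adjusted p = 2.71e-08). Pck2, the mitochondrial phosphoenolpyruvate carboxykinase, had 6.37, 6.09 and 6.22 on the STS+OXP arrays and 8.59, 8.59 and 8.59 on the CTR arrays, a difference of -2.36 (standard error 0.22, adjusted p = 1.65e-06). Slc7a5, the large neutral amino acid transporter, had 6.98, 7.37 and 7.14 on the STS+OXP arrays and 9.48, 9.40 and 9.50 on the CTR arrays, a difference of -2.29 (standard error 0.192, adjusted p = 5.90e-07). The groups did not overlap in any of them, as in 44.1% of all genes. The 2 risers were Sesn2, a stress protein that is also a p53 target, with 0.51 (adjusted p = 0.000782), and Vldlr, a lipoprotein receptor, with 0.64 (adjusted p = 0.0124). Vldlr was not called without CTR replicate 1 (adjusted p = 0.0571) or without STS+OXP replicate 1 (adjusted p = 0.0603), nor with the mean of all probe sets or specific probe sets only (adjusted p = 0.0536 and 0.665), and Sesn2 was not called with the mean of all probe sets (adjusted p = 0.141).

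A match to the composite element that ATF4 binds (CARE, TGATGNAA on either strand) was present in 8 of 22 promoters of this list, or 36.4%, against 3.26% of all promoters. The promoter of Trib3, the largest change among the members with a match, is shown for its position just after the start site (chr2:152344011-152344310, minus strand), with the match, which starts at base 14 after the start and is read on the other strand, in capitals.
Trib3: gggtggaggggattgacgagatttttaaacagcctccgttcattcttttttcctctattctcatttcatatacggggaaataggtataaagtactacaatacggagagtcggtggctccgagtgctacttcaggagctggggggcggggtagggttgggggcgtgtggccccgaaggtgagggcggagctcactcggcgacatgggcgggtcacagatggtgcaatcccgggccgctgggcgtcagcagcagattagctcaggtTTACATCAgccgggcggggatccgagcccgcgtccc

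Aminoacyl-tRNA synthetases fell as well. Of 17 cytosolic aminoacyl-tRNA synthetases, 15 were lower and 0 higher, with a median of -0.91. Lars, the leucyl-tRNA synthetase, had 7.74, 7.70 and 7.81 on the STS+OXP arrays and 9.40, 9.19 and 9.10 on the CTR arrays, a difference of -1.48 (standard error 0.0817, adjusted p = 1.02e-08), and Farsb, a subunit of the phenylalanyl-tRNA synthetase, fell by 1.42 (adjusted p = 4.99e-08), though not with specific probe sets only (adjusted p = 0.163). Among 16 amino acid transporters 6 were lower, including Slc7a1, which carries arginine and lysine (-1.41, adjusted p = 1.80e-06), and Slc1a5, which carries glutamine (-1.12, adjusted p = 9.07e-08). The lysosomal transporter Slc36a1 rose by 0.80 (adjusted p = 2.94e-05).

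Chaperones of the endoplasmic reticulum, which the unfolded protein response controls, fell in STS+OXP and had lower values in STS. Of 20 measured, 16 were lower and 0 higher in STS+OXP than in CTR, with a median of -0.89, and 18 were lower in STS, with a median of -0.97. Sdf2l1, a partner of the chaperone BiP, had 7.03, 7.03 and 6.71 on the STS+OXP arrays and 9.43, 9.11 and 9.19 on the CTR arrays, a difference of -2.32 (standard error 0.188, adjusted p = 4.24e-07), and Creld2, a secreted stress protein, had 7.98, 7.91 and 8.04 on the STS+OXP arrays and 10.37, 10.25 and 10.16 on the CTR arrays, a difference of -2.28 (standard error 0.179, adjusted p = 3.28e-07). Herpud1, of the degradation machinery, fell by 1.71 (adjusted p = 2.54e-06). Between STS+OXP and STS, 2 of the 20 genes were higher and 0 lower. A CCAAT box (CCAAT on either strand) was present in 17 of 18 of these promoters (94.4%), against 42.3% of all promoters.

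**Figure D4:**
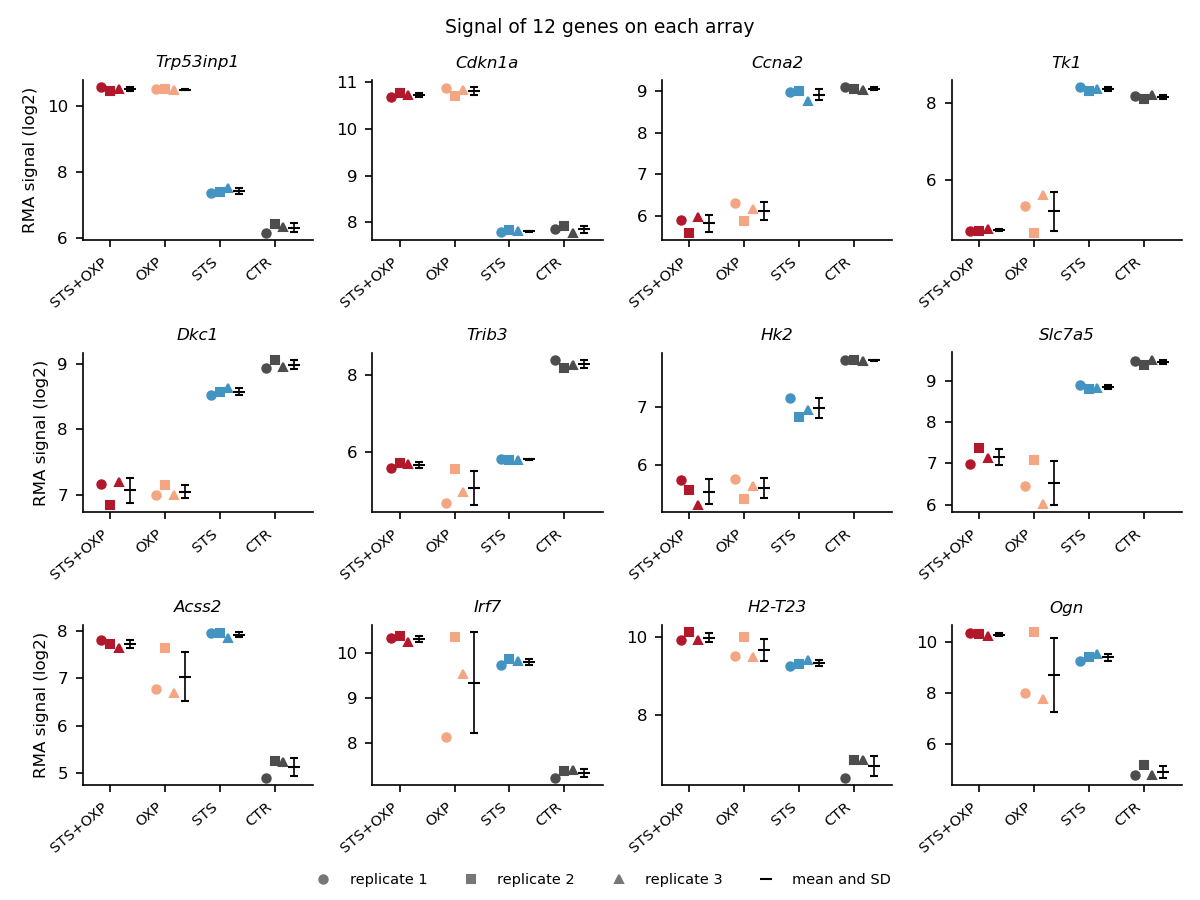
RMA signal (vertical axes, log2) of 12 genes on each array of STS+OXP, OXP, STS and CTR (horizontal axes), with a marker shape for each replicate and black bars for the group mean with its SD (n = 3). For each gene all 3 STS+OXP arrays lie on one side of all 3 CTR arrays, as for 44.1% of all genes. OXP replicate 2 lies nearer to STS+OXP than the other OXP arrays for Ogn, Acss2 and Irf7.

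Glycolysis genes were lower in STS+OXP-treated cells. Of 20 measured genes of glycolysis with the transporters of glucose and lactate, 12 were lower and 2 higher, with a median of -0.69. Hk2, the inducible hexokinase, had 5.73, 5.55 and 5.30 on the STS+OXP arrays and 7.81, 7.81 and 7.80 on the CTR arrays, a difference of -2.28 (standard error 0.119, adjusted p = 6.51e-09). Pfkp, the platelet form of phosphofructokinase, had 5.53, 5.46 and 5.44 on the STS+OXP arrays and 7.03, 7.22 and 7.15 on the CTR arrays, a difference of -1.66 (standard error 0.239, adjusted p = 9.34e-05). Pfkl, the liver form, had 4.58, 4.66 and 4.34 on the STS+OXP arrays and 6.82, 7.17 and 7.26 on the CTR arrays, a difference of -2.56 (standard error 0.278, adjusted p = 7.09e-06), but a dimmer probe set of the gene, with a mean signal of 3.81, had -0.36. The glucose transporter Slc2a1 had a mean signal of 8.62 in STS+OXP and 9.43 in CTR, a difference of -0.81 (standard error 0.0992, adjusted p = 2.22e-05), Pkm, the pyruvate kinase, fell by 0.70 (adjusted p = 0.00486), and Ldha, which turns pyruvate into lactate, fell by 1.26 (adjusted p = 1.24e-05). The 2 risers were the constitutive hexokinase Hk1 (0.77, adjusted p = 0.000342) and the muscle phosphofructokinase Pfkm (0.56, adjusted p = 0.0032).

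HIF-1 targets, several of which encode glycolytic enzymes, gave 11 lower and 1 higher genes of 24 measured, with a median of -0.37. Ero1a, which forms disulfide bonds in the endoplasmic reticulum, had 7.36, 7.31 and 7.32 on the STS+OXP arrays and 9.48, 9.42 and 9.51 on the CTR arrays, a difference of -2.14 (standard error 0.116, adjusted p = 9.31e-09), Ankrd37, at background in STS+OXP, was at least 3.39-fold lower (adjusted p = 0.000302), and Bnip3, which targets mitochondria for autophagy, fell by 1.92 (adjusted p = 2.09e-05). In STS 12 of these targets were lower than in CTR, with a median of -0.50. Of 13 genes of glutamine and proline metabolism, 8 were lower and 0 higher. Gpt2, which transfers amino groups from glutamate to pyruvate, had 5.28, 5.03 and 5.24 on the STS+OXP arrays and 7.54, 7.63 and 7.81 on the CTR arrays, a difference of -2.48 (standard error 0.136, adjusted p = 9.79e-09). Psat1, which uses glutamate to make serine, had 8.33, 8.36 and 8.27 on the STS+OXP arrays and 10.43, 10.34 and 10.36 on the CTR arrays, a difference of -2.06 (standard error 0.0716, adjusted p = 2.43e-10).

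Of 19 genes of the tricarboxylic acid cycle, 9 were lower and 1 was higher. The riser, Sdha, lost its call without CTR replicate 1, STS+OXP replicate 1 or STS+OXP replicate 3. The largest fall was that of Idh2, the mitochondrial NADP-dependent isocitrate dehydrogenase (-1.14, adjusted p = 5.51e-08), for which a dimmer set gave -0.04 (adjusted p = 0.841) with specific probe sets only, against 7.67e-05 or lower under the other 21 alternatives. Of 69 subunits of respiratory complexes I to V, 19 were higher and 9 lower, with a median of 0.06, while of all genes above background in both groups 27.0% were higher and 23.3% lower. Without CTR replicate 2 the number that rose was 12, and without CTR replicate 1 the number that fell was 5. Ndufa11, of complex I, rose by 0.66 (adjusted p = 0.000373), and Atp5b, the catalytic subunit of ATP synthase, fell by 0.41 (adjusted p = 0.00143). Of 16 genes of fatty acid oxidation, 7 were higher and 2 lower. Slc25a20, the carnitine carrier, rose by 1.16 (adjusted p = 1.55e-06), and Cpt1a, the carnitine palmitoyltransferase at the entry, by 0.66 (adjusted p = 1.48e-05).

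Genes of sterol and fatty acid synthesis rose. Of 18 genes of cholesterol synthesis, 15 were higher and 0 lower in STS+OXP, with a median of 1.16. Lss, the cyclase that makes lanosterol, had 5.97, 5.85 and 5.81 on the STS+OXP arrays and 3.56, 4.41 and 3.96 on the CTR arrays, a difference of 1.90 (standard error 0.338, adjusted p = 0.000542). Idi1, an isomerase of isoprenoid units, had 9.41, 9.30 and 9.30 on the STS+OXP arrays and 7.55, 7.88 and 7.69 on the CTR arrays, a difference of 1.63 (standard error 0.305, adjusted p = 0.0008), and Mvk, the mevalonate kinase, rose by 1.36 (adjusted p = 0.000572). Of 13 genes of fatty acid synthesis, 6 were higher and 0 lower. Acss2, which makes acetyl-CoA from acetate, had 7.81, 7.73 and 7.65 on the STS+OXP arrays and 4.91, 5.26 and 5.25 on the CTR arrays, a difference of 2.59 (standard error 0.189, adjusted p = 1.62e-07), Scd1, the stearoyl-CoA desaturase, rose by 1.15 (adjusted p = 3.88e-05), and Fasn, the fatty acid synthase, by 1.03 (adjusted p = 0.0128). Fasn was not called without CTR replicate 1 (adjusted p = 0.0611) or under eBayes with trend and robust (adjusted p = 0.0556).

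Sterol genes were higher in STS as well. Relative to CTR, 16 of the 18 genes were higher in STS (median 1.13) and 8 in OXP (median 0.53), and between STS+OXP and STS 0 were higher and 1 was lower (median -0.13).

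All 15 promoters of cholesterol genes in the RefSeq table held a CCAAT box, against 42.3% of all promoters. NF-Y, which binds this box, is known to act with SREBP factors on sterol genes. A spelled-out sterol element (TCACNCCAC on either strand) was in 1 of the 15 promoters, against 1.49% of all. For the lysosomal genes, the E-box CACGTG, which is part of the element that TFEB binds, was in 11 of 21 promoters (52.4%), against 10.2%. The promoters of Lss (chr10:76531355-76531654, plus strand, CCAAT box in reverse in capitals, from -62) and of the lysosomal gene Gaa (chr11:119267713-119268012, plus strand, E-box in capitals, from -140), each the largest change of its list among the members with a match, are shown.
Lss: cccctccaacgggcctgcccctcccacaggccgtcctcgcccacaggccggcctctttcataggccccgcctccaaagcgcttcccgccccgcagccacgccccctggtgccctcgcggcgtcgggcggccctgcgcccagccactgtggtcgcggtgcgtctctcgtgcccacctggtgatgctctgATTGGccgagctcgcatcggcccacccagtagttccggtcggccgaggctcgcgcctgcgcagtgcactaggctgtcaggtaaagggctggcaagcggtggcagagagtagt
Gaa: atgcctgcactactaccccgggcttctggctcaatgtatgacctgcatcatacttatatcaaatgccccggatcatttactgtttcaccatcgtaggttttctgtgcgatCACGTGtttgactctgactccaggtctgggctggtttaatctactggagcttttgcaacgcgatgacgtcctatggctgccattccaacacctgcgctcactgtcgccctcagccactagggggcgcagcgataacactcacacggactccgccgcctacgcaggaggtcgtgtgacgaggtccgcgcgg

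Lysosome genes rose, and so did many of autophagy. Of 26 lysosomal genes, 22 were higher and 1 was lower, with a median of 0.80, and the faller, Ctsh, was not above background in either group. Tpp1, a peptidase of the lysosome, had 10.84, 10.74 and 10.86 on the STS+OXP arrays and 9.04, 9.19 and 9.12 on the CTR arrays, a difference of 1.70 (standard error 0.075, adjusted p = 1.45e-09). Ctsd, the protease cathepsin D, had 10.0, 9.91 and 9.97 on the STS+OXP arrays and 8.49, 8.41 and 8.41 on the CTR arrays, a difference of 1.53 (standard error 0.0797, adjusted p = 6.55e-09). Gaa, the acid glucosidase that breaks down glycogen, had 7.88, 8.09 and 7.79 on the STS+OXP arrays and 6.21, 6.28 and 6.22 on the CTR arrays, a difference of 1.69 (standard error 0.243, adjusted p = 9.09e-05). In STS 13 of the genes were higher than in CTR (median 0.36), and 18 were higher in STS+OXP than in STS (median 0.34). Of 25 autophagy genes, 15 were higher and 1 was lower, with a median of 0.45. Map1lc3a, which encodes a form of LC3, rose by 0.96 (adjusted p = 7.64e-08) and Gabarap, a relative of it, by 0.93 (adjusted p = 1.11e-06).

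FoxO targets and genes of insulin signalling were higher in 13 and lower in 1 of 20 measured, with a median of 0.81. Fbxo32, which encodes the ubiquitin ligase atrogin-1, had 5.55, 5.72 and 5.49 on the STS+OXP arrays and 3.78, 3.75 and 3.94 on the CTR arrays, a difference of 1.77 (standard error 0.119, adjusted p = 7.32e-08). Sesn3, a sestrin that FoxO induces, rose by 1.68 (adjusted p = 4.93e-07), and Ccng2, an atypical cyclin of arrested cells, by 1.50 (adjusted p = 1.28e-05). Akt1, the kinase that holds FoxO in the cytosol, fell by 0.53 (adjusted p = 3.07e-05). Arrdc3, a relative of Txnip that the glucose sensor MondoA controls, had 7.48, 7.22 and 7.23 on the STS+OXP arrays and 5.07, 5.60 and 5.67 on the CTR arrays, a difference of 1.86 (standard error 0.169, adjusted p = 1.30e-06). In STS 12 of the FoxO list were higher than in CTR, with a median of 0.57.

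Interferon-stimulated genes rose in nearly the whole list. Of 35 measured, 32 were higher and 1 was lower in STS+OXP, against 16.4% and 14.2% of all genes, with a median of 1.77. Irf7, the transcription factor that amplifies the interferon response, had 10.34, 10.37 and 10.24 on the STS+OXP arrays and 7.22, 7.36 and 7.39 on the CTR arrays, a difference of 2.99 (standard error 0.367, adjusted p = 2.13e-05). Zbp1 had 9.05, 9.14 and 8.97 on the STS+OXP arrays and 6.02, 5.88 and 5.91 on the CTR arrays, and Iigp1, an interferon-inducible GTPase of innate defence, had 8.74, 8.44 and 8.47 on the STS+OXP arrays and 5.23, 5.80 and 5.59 on the CTR arrays, a difference of 3.01 (standard error 0.236, adjusted p = 3.17e-07). The arrays of the groups did not overlap in these genes, as in 44.1% of all genes. The sole faller of the list was Cxcl10, a chemokine that draws T cells, with 6.19, 6.51 and 6.30 on the STS+OXP arrays and 8.14, 7.92 and 8.18 on the CTR arrays, a difference of -1.75 (standard error 0.147, adjusted p = 6.13e-07), and Ifi27, which is not on the list, was lower too (-2.88). The 2 genes not called were Oasl1 (0.15) and Eif2ak2 (0.55). In STS 35 of the 35 genes were higher than in CTR (median 1.59), and between STS+OXP and STS 9 were higher and 4 lower (median 0.10).

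The interferon-stimulated response element (ISRE, GAAA and again GAAA after a gap of 2 bases, on either strand) was present in 14 of 25 promoters of this list, or 56%, against 3.6% of all promoters. Gbp2, a guanylate-binding GTPase, had the largest change among the members with a match, with mean signals of 8.57 in STS+OXP and 5.64 in CTR and a difference of 2.92 (standard error 0.101, adjusted p = 2.40e-10). Its promoter is shown (chr3:142620413-142620712, plus strand), with the match, which starts at -59 and is read on the other strand, in capitals.
Gbp2: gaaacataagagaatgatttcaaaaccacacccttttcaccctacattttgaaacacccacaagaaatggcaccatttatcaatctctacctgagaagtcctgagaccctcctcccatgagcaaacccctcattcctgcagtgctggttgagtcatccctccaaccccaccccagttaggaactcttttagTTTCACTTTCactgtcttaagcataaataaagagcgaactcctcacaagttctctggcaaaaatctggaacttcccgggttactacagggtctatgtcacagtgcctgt

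Genes of antigen presentation on MHC class I rose with them. Of 13 measured, 12 were higher and 0 lower, with a median of 1.69. H2-T23, which encodes the ligand Qa-1, had 9.91, 10.11 and 9.90 on the STS+OXP arrays and 6.39, 6.85 and 6.84 on the CTR arrays, a difference of 3.28 (standard error 0.145, adjusted p = 1.42e-09). Nlrc5, the transactivator of class I genes, had 6.70, 6.95 and 6.82 on the STS+OXP arrays and 4.52, 4.53 and 3.93 on the CTR arrays, a difference of 2.49 (standard error 0.145, adjusted p = 1.76e-08). H2-D1, a classical class I heavy chain, had 10.69, 10.75 and 10.64 on the STS+OXP arrays and 8.34, 8.17 and 8.25 on the CTR arrays, a difference of 2.44 (standard error 0.175, adjusted p = 1.37e-07), but with specific probe sets only it took another set with a difference of 0.13 (adjusted p = 0.405, against 6.4e-06 or lower under the other 21 alternatives). H2 genes are closely related, and a probe set may read several. In STS 12 of the 13 genes were higher than in CTR, with a median of 1.75. Of the 9 macrophage markers 1 was higher in STS+OXP, Cd14, a receptor of lipopolysaccharide, with means of 7.75 in STS+OXP and 7.02 in CTR (adjusted p = 0.000571). The log2 of the summed signals of the 9 was 8.10 to 8.18 on the STS+OXP arrays and 7.58 to 7.75 on the CTR arrays. Cd14 made up most of this sum, and the median difference of the list was 0.02. The part of such cells in the interferon and MHC results was not tested.

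Immediate early genes, which growth factors and stress induce within minutes, were mostly higher. Of 21 measured, 14 were higher and 2 lower, with a median of 0.81. Junb, a subunit of the factor AP-1, had 7.34, 7.38 and 7.33 on the STS+OXP arrays and 4.31, 4.95 and 4.43 on the CTR arrays, a difference of 2.79 (standard error 0.352, adjusted p = 2.80e-05). Fos, its partner, had 7.18, 7.12 and 6.80 on the STS+OXP arrays and 4.26, 4.84 and 4.01 on the CTR arrays, a difference of 2.66 (standard error 0.307, adjusted p = 1.19e-05), and Egr2, a zinc finger factor, had 4.91, 4.82 and 5.33 on the STS+OXP arrays and 2.15, 2.49 and 2.45 on the CTR arrays, where it was at background, and was at least 2.57-fold higher (adjusted p = 2.48e-05). The fallers were Myc, the growth regulator, with 7.75, 7.92 and 7.93 on the STS+OXP arrays and 8.68, 8.81 and 8.89 on the CTR arrays and a difference of -0.92 (standard error 0.0974, adjusted p = 5.21e-06), and Atf3, a stress factor (-0.46, adjusted p = 0.00168). Of 15 feedback genes of the kinase ERK, 8 were higher and 1 was lower. The faller, Etv5, lost its call with the replicate block and without CTR replicate 1, 2 or 3, STS replicate 3, STS+OXP replicate 2 or STS+OXP replicate 3. Spry4, an inhibitor of the pathway, rose by 1.45 (adjusted p = 4.99e-06), and Spry1 by 1.50 (adjusted p = 3.48e-06). Ccn1, a matrix protein that YAP and serum response factor control, had 11.39, 11.58 and 11.48 on the STS+OXP arrays and 8.45, 9.23 and 9.18 on the CTR arrays, a difference of 2.53 (standard error 0.206, adjusted p = 4.69e-07).

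Of the genes of the extracellular matrix, collagens and proteoglycans were called only higher, and proteases and inhibitors in both directions. Of 26 collagens and proteoglycans, 11 were higher and 0 lower, with a median of 0.21. Beside Ogn, Col6a1, a chain of the microfibrillar collagen VI, had 7.26, 7.24 and 7.16 on the STS+OXP arrays and 5.56, 5.70 and 5.78 on the CTR arrays, a difference of 1.54 (standard error 0.0971, adjusted p = 3.89e-08), and Col6a2 rose by 1.18 (adjusted p = 8.06e-08). Of 17 matrix proteases and inhibitors, 7 were higher and 4 lower, or 2 lower without CTR replicate 2, with a median of 0.001. Of all genes above background in both groups, 27.0% were higher and 23.3% lower, and the share lower of the proteases and inhibitors was near theirs. Mmp2, a gelatinase, rose by 1.90 (adjusted p = 7.80e-08), Mmp14, the membrane protease that activates it, by 1.60 (adjusted p = 3.95e-08), and Timp3, an inhibitor, by 1.60 (adjusted p = 8.23e-06). Plaur, the urokinase receptor, had 4.93, 5.20 and 5.38 on the STS+OXP arrays and 7.02, 7.06 and 7.04 on the CTR arrays, a difference of -1.87 (standard error 0.107, adjusted p = 1.53e-08), and the inhibitor Timp1 fell by 0.69 (adjusted p = 0.000224). Of 8 fibroblast markers, 5 were above background in at least 1 group. The 3 that were higher were Col3a1 (0.98), Dcn (at least 1.28-fold, at background in CTR) and Pdgfrb (0.68). The median difference of the list was 0.08, and Lum, Thy1 and Fap were at background in both groups. The log2 of the summed signals of the 8 was 10.75 to 10.83 on the STS+OXP arrays and 9.80 to 9.91 on the CTR arrays. Col3a1 made up most of this sum. The part of fibroblast-like cells in these rises was not tested.

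Of 25 NF-kB targets and chemokines, 8 were higher and 0 lower, with a median of 0.16, against 16.4% and 14.2% of all genes. Of the list, 18 genes were above background in at least 1 group. Of all genes above background in both groups, 27.0% were higher and 23.3% lower, so the share higher of the list was near theirs. Nfkbia, the inhibitor that NF-kB itself induces, had 7.21, 7.22 and 7.24 on the STS+OXP arrays and 5.72, 5.98 and 5.76 on the CTR arrays, a difference of 1.40 (standard error 0.0861, adjusted p = 3.04e-08), and the chemokine Ccl5 rose by 0.89 (adjusted p = 1.74e-05). Clu, the secreted chaperone clusterin, had 9.01, 9.19 and 8.78 on the STS+OXP arrays and 7.20, 7.26 and 6.98 on the CTR arrays, a difference of 1.85 (standard error 0.116, adjusted p = 3.92e-08). Of 11 vascular growth factors, 2 were higher and 1 was lower, with a median of 0.02, a share called near that of all genes (30.6%). Vegfd, a lymphatic growth factor, rose by 1.35 (adjusted p = 3.88e-06), whereas Vegfa, the main angiogenic factor, fell by 0.60 (adjusted p = 6.73e-05).

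Properties of the genes that had no part in the comparison were set beside the differences. Genes were divided by their length in the genome into 5 classes of equal size. Among protein-coding genes above background, 1932 or 1933 in each class, the median difference was 0.02 in the class of the shortest genes (median span 4.37 kb) and 0.04 in that of the longest (median span 109.8 kb), and the share called lower, in order of length, was 21.3%, 25.6%, 25.5%, 22.9% and 21.4%. Among 8078 expressed genes with a promoter in the RefSeq table, 27.2% were called higher and 23.5% lower. Of the 282 with an ISRE, 37.6% were higher, of the 381 with an AP-1 site (TGAGTCA or TGACTCA) 33.3% were higher, and of the 1057 with an E2F site 30.3% were lower. A total of 14 motifs was searched on both strands, the others being the GAS, CRE, heat shock, TATA, ETS and p53 half-site motifs, among whose genes 17.8% to 32.9% were higher. The share lower was larger than for the E2F site among the 45 genes with a heat shock element (33.3%). It was close to that of the E2F site among the 209 with a CARE (29.2%), of which 29.2% were higher as well. For the CHR, 26.3% of 1792 genes were higher and 24.7% lower, and for the CCAAT box 27.5% and 25.4% of 3462. The E-box had 30.9% higher and 23.7% lower of 974 genes, and the sterol element 31.1% and 21.8% of 119. Of the pairs of motifs, the CHR and the GAS motif overlapped most often, in 58 of 16953 promoters, the CHR and the CCAAT box in 28 and the E2F site and the ISRE in 11. These matches describe letters in a window and not the binding of a factor.

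**Figure D5:**
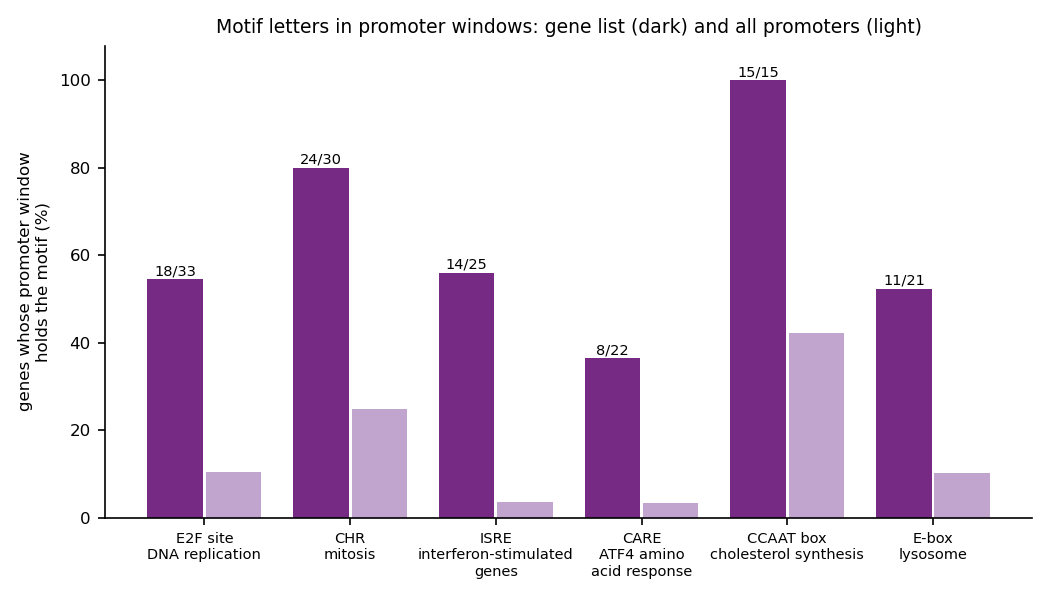
Share of genes whose promoter window (250 bases before to 50 after the start) holds the letters of a motif (vertical axis, percent), for 6 pairs of a motif and a gene list, with the list in dark bars (numbers of genes above) and all 13514 promoters of measured genes in light bars. The list stands above all promoters in each pair, from 36.4% against 3.26% for CARE to 100% against 42.3% for the CCAAT box.

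Each call rested on 1 probe set, and the other probe sets of the called genes were set beside it. Of the 5230 called genes, 1901 had a further probe set above background, 2754 sets in all, and 87.8% of these had a difference of the same sign. The sign was opposite by at least 0.5 for 27 sets, among them the brighter of the other sets of Cryab. With the mean of all probe sets of a gene, Trp53inp1 had a difference of 2.25, Txnip of 2.45, Brca1 of -0.81 and Mcm5 of -1.47, and with specific probe sets only Zbp1 had 1.70, Bcat1 -0.48, Tyms -0.54 and Gpt2 -1.18, and each of these stayed called.

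Set against the single stressors, the combined state differed from STS in 3764 genes (22.0%), 1854 of them higher (10.8%) and 1910 lower (11.2%), and from OXP in 2 genes (0.0117%), Shmt1 higher (0.00585%, 0.57, adjusted p = 0.0297) and Angpt2 lower (0.00585%, -0.58, adjusted p = 0.0244), with 2160 at an unadjusted p under 0.05 in limma. By class, 38 of 40 replication genes, 37 of 38 mitotic genes, 14 of 23 recombination genes and 14 of 20 genes of nucleotide synthesis fell below their level in STS, and 28 of 38 p53 targets were higher. Of the 13 class I genes 2 were higher and 1 was lower than in STS, and of the 13 fatty acid synthesis genes 0 were higher and 1 was lower. The count against OXP depended on OXP replicate 2, which had root mean square differences of 0.143 to 0.204 from the STS+OXP arrays, against 0.237 to 0.356 for OXP replicates 1 and 3. Without it 1166 genes differed between STS+OXP and OXP, 407 higher and 759 lower, and without OXP replicates 1 and 2 together 688 genes did, a fit that takes the spread of the remaining OXP array from the other groups.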

How the data were processed

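RNA on 12 arrays, 3 each of STS+OXP, OXP, STS and CTR, was measured with Affymetrix mouse expression arrays. The deposited values are log2 signals that the authors made with RMA in R 3.02, per the submitters' processing notes, and that were not normalized again. RMA assumes a like distribution of signals on all arrays, so a change of most mRNAs in one direction would not be seen. Groups were taken from the sample titles. Of 45141 probe sets, 28898 had a single gene symbol, 551 several and 15588 none. The probe set with the highest mean signal over the 12 arrays stood for each of 17097 genes.

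Differences were fitted with limma 3.58.1 (R 4.3.3), as a model of 4 group means over all arrays (8 residual degrees of freedom), with two-sided tests and Benjamini-Hochberg adjustment over all genes. A gene was called at an adjusted p under 0.05. The procedure was tested on simulated data. "At least" folds compare the detected group with the background of the other group, and the number of arrays limits the precision. Motifs were counted in RefSeq promoters (GRCm38.p6) with Python 3.11.15 and pandas 2.3.3.

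The gene lists and the genes named were chosen with earlier results of these data known. Named were called genes without overlap between groups, the 20 with the largest rise and the 20 with the largest fall (clones and predicted genes passed over), up to 3 risers and 3 fallers of each list, and genes of glycolysis and glutamine metabolism that the study names, of which some are not reported here. Any other gene was chosen after its values were seen. Alternatives were other scaling, other probe sets, a filter on low signal, other variance models, fewer arrays, a replicate block and the methods' t-test.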

Additional observations from a re-analysis of the deposited data

Results flagged for a closer look

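The control probe sets that read both ends of a transcript gave a signal outside the comparison of genes. The 3′ signal of Gapdh exceeded its 5′ signal by a mean of 0.179 (log2) in STS+OXP and -0.0601 in CTR, a difference of 0.239. For Actb the excess was 1.13 in STS+OXP and 0.887 in CTR, a difference of 0.241. In both genes the 3 STS+OXP arrays lay above the 3 CTR arrays, and the part of this in the called genes was not tested.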

How the results depend on the processing

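The number of genes called between STS+OXP and CTR was 5230, and 4576 to 5860 when 1 array was left out. It was 1164 with a fold of at least 2 required and 3165 with the methods' t-test after Benjamini-Hochberg adjustment (5710 unadjusted). Against STS the number was 3764, 2927 to 4526 when 1 array was left out, 588 with the fold required and 2169 with the adjusted t-test. Against OXP it was 2, and 0 to 1166 when 1 array was left out, with 1166 without OXP replicate 2. It was 4 with each array centred on its median, 688 without OXP replicates 1 and 2, 514 with the unadjusted t-test, and 0 with the replicate block, array quality weights, the mean of all probe sets, a trended robust eBayes, a fit to the 6 arrays compared, the fold required or the adjusted t-test. The deviations of same-numbered STS+OXP and CTR arrays correlated at -0.199, -0.198 and 0.0505 over genes, and those of unlike-numbered arrays at -0.0399 to 0.254. Whether equal replicate numbers pair cultures is not stated, and these values cannot decide it. The replicate block gave 5110 calls against CTR, 3661 against STS and 0 against OXP. Of 225 named genes, 196 stayed called under every setting that measured them, and 29 lost the call under at least 1 setting. Bmf turned to -0.0394 with specific probe sets only (adjusted p = 0.817), where fewer genes, 15261, were measured. There 13 of 18 lysosome genes were higher, and 8 of 52 genes of respiratory complexes I to V were higher. A fit to the 6 arrays compared gave 13 lower genes of the NRF2 and glutathione genes, against 8. The sole riser lost its call among cytosolic ribosomal proteins without CTR replicate 3 or STS+OXP replicate 1, among high-mobility-group proteins and lamins without CTR replicate 2 or STS+OXP replicate 2, and among one-carbon enzymes without CTR replicate 2 or 3 or STS+OXP replicate 1 or 2. The median of the longest 20% of genes minus that of the shortest 20% was 0.0077, and 0.0468 among genes above the median signal. The causes were not tested. Dim probe sets limit what can be seen, since 7139 genes were above background in neither group.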

Other observations

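Heat shock proteins of the cytosol moved in both directions. Of 14 measured, 4 were higher and 4 lower in STS+OXP than in CTR, with a median of 0.04. These counts lay near the share over all genes above background in both groups (27.0% higher and 23.3% lower). Beside Cryab, the inducible chaperone Hspa1b had 6.65, 6.59 and 6.65 on the STS+OXP arrays and 4.30, 4.97 and 4.84 on the CTR arrays, a difference of 1.93 (standard error 0.243, adjusted p = 2.80e-05). Hsp90aa1, the inducible form of the chaperone HSP90, had 8.87, 8.14 and 8.72 on the STS+OXP arrays and 9.87, 9.73 and 9.75 on the CTR arrays, a difference of -1.21 (standard error 0.168, adjusted p = 6.85e-05). Of 21 genes of the antioxidant factor NRF2 and of glutathione metabolism, 4 were higher and 8 lower. The glutathione transferases Gsta4 and Gstm1 rose by 2.16 and 1.64 (adjusted p = 1.25e-08 and 1.68e-07), while Hmox1, the heme oxygenase, fell by 1.66 (adjusted p = 4.55e-05). Of 30 proteasome subunits, 8 were lower and 0 higher, or 5 lower without CTR replicate 1, CTR replicate 2 or STS+OXP replicate 3. The share of subunits that were lower was near the 23.3% of all genes above background in both groups.

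Among 11 transporters that carry platinum drugs or their conjugates, 3 were lower and 1 was higher, with a median of -0.02. The share called was near that of all genes (30.6%), and 6 of the 11 were above background in at least 1 group. The exporters Abcc4 and Abcc1 fell by 0.95 and 0.78 and the copper importer Slc31a1 by 0.55 (adjusted p = 0.00572, 1.39e-06 and 0.000302), while the copper pump Atp7a rose by 0.49 (adjusted p = 0.00386). Of 10 genes of metallothioneins and zinc transport, 2 were higher and 1 was lower, near the share over all genes (30.6% called), and 2 were lower without OXP replicate 2 or OXP replicate 3. The importers Slc39a8 and Slc39a14 differed in direction, with 1.00 (adjusted p = 0.000433) and -1.19 (adjusted p = 7.45e-08). Of 17 genes of transcription elongation, 8 were higher and 1 was lower, led by Ell2, an elongation factor of RNA polymerase II, with 1.50 (adjusted p = 2.58e-06). Of 12 targets and members of the TGF-beta pathway, 4 were higher and 1 was lower, or 2 higher when CTR replicate 1, CTR replicate 3, STS+OXP replicate 1, STS+OXP replicate 3 or any STS array was left out. Of all genes above background in both groups, 27.0% were higher and 23.3% lower, and the share higher of the TGF-beta list was near theirs.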
